A study of Mus musculus with 19 samples.

Results

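The genes described are the nuclear-encoded subunits of the mitochondrial respiratory chain and ATP synthase in mouse liver. They were chosen by symbol alone. Rows of the gene count table were taken if the symbol begins with Nduf followed by a, b, c, s or v and a digit. Sdha, Sdhb, Sdhc and Sdhd were taken too, and symbols that begin with Uqcr, Cox4 to Cox8 or Atp5. Symbols with -ps were left out. This gave 89 of 55416 rows: 40 of complex I, 4 of complex II, 8 of complex III, 19 of complex IV and 18 of complex V. The table uses older ATP synthase symbols, so that Atp5a1, Atp5b, Atp5e, Atp5l and Atp5g1 to Atp5g3 stand for the genes now called Atp5f1a, Atp5f1b, Atp5f1e, Atp5mg and Atp5mc1 to Atp5mc3. The symbol rule takes in Atp5s, a mitochondrial factor that is not a core subunit, and leaves out Cyc1 of complex III and Ndufab1 of complex I. It also leaves out the row named Ndufb1-ps, which held 36308 counts over all libraries. Ndufa4 is grouped with complex I by its name, although its protein is now regarded as part of complex IV.

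The study sequenced poly(A) RNA from livers of C57BL/6 mice, either wild type (WT) or lacking interleukin-6 (labelled IL-6 -/-, here called knockout). Injected mice were given 2 intraperitoneal doses of vehicle or of 4 mg furosemide, a loop diuretic, with 3 h between the doses, and livers were collected 6 h after the first one. The labels give the furosemide groups as pre-renal azotemia (PRA), the build-up of nitrogenous waste that follows poor perfusion of the kidneys. There were 4 libraries from non-injected WT mice (normal), 4 WT vehicle, 4 WT PRA, 4 knockout vehicle and 3 knockout PRA libraries. The sources used here do not give age, sex or the design of the knockout allele, and there was no non-injected knockout group.

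Complexes I and II pass electrons from NADH and succinate to ubiquinone, complex III passes them on to cytochrome c, and complex IV reduces oxygen with them. Complexes I, III and IV pump protons across the inner mitochondrial membrane, and complex V, the ATP synthase, uses the resulting gradient to make ATP. Most subunits are encoded in the nucleus, a small set of hydrophobic core subunits is encoded in mitochondrial DNA, and hepatocytes rely on the chain for the ATP and the redox balance behind gluconeogenesis, urea synthesis and fatty acid oxidation. Nuclear respiratory factor 1 (NRF1), ETS-family factors such as NRF2/GABP, cyclic AMP response element binding protein, estrogen-related receptors and YY1 are known regulators of these genes.

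The promoter sequences printed here belong to the 4 subunits that passed the test for WT PRA against vehicle, and to Cox6a1, shown as 1 example of the 7 subunit promoters with matches to more than 1 motif (the others are those of Ndufa11, Ndufs6, Sdhd, Atp5g3, Atp5h and Atp5k). Each is the 250 bases before the annotated start of the gene, 5′ to 3′ on the strand of the gene, from RefSeq on build GRCm38.p6, which differs from the build of the counts (GRCm39). Capitals mark exact matches to the motifs searched.

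Ndufb2, chr6:39592315-39592564, plus strand, cyclic AMP response element: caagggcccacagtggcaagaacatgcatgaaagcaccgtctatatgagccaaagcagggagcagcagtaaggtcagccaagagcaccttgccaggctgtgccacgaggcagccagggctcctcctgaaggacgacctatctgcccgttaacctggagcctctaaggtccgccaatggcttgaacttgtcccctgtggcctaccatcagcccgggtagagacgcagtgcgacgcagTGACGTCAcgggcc
Ndufb6, chr4:40279422-40279671, minus strand, ETS site: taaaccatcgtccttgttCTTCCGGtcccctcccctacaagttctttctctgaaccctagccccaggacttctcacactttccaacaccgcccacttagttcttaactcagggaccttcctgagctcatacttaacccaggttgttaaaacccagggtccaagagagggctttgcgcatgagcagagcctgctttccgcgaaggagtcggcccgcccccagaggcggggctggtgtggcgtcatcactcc
Atp5e, chr2:174464102-174464351, minus strand, ETS site: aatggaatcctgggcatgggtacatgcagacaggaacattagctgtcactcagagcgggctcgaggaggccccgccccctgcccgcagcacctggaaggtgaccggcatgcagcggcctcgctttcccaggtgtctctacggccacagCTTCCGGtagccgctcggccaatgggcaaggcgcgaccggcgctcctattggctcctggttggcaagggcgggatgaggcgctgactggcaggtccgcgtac
Atp5l, chr9:44920743-44920992, minus strand, ETS site: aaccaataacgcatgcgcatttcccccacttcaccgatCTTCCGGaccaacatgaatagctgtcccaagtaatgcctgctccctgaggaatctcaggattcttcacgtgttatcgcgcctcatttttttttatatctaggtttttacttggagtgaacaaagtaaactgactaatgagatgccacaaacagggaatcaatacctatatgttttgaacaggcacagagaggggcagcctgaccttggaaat
Cox6a1, chr5:115348959-115349208, minus strand, NRF1 and ETS sites: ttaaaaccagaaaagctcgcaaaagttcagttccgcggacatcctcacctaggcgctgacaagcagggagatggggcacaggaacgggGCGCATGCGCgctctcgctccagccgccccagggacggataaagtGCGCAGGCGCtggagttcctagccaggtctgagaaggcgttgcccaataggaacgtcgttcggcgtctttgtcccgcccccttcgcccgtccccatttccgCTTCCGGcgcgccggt

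The capitals begin 14 bases before the start in Ndufb2, 232 in Ndufb6, 102 in Atp5e and 212 in Atp5l. In Cox6a1 they begin 162 and 117 bases (NRF1) and 16 bases (ETS) before it. Motifs were searched on both strands in windows of 300 bases, from 250 before to 50 after the start, for the 66 of 88 distinct member symbols found in the RefSeq table and for all 27025 genes in it. Matches to different motifs were counted separately, whether or not they overlapped. The NRF1 letters (GCGCA, any base, GCGC) were found in 17 of 66 subunit promoters (25.8%, against 5.19% of all genes) and the ETS letters CCGGAAG in 16 (24.2%, against 9.93%). Either of these was found in 29 of 66 (43.9%, against 14.0% of all genes). The cyclic AMP response element TGACGTCA was found in 4 (6.06%, against 2.03%), namely Ndufa10, Ndufa11, Ndufb2 and Uqcrfs1, and the YY1 letters (AA, any base, then ATGG and CGGC without a gap) in 4 (6.06%, against 1.17%), namely Ndufa9, Ndufs4, Ndufs6 and Ndufs7. The estrogen-related receptor letters TCAAGGTCA were found in 2 (3.03%, against 0.466%), Sdhd and Atp5g3. These are matches of letters and not measured binding, and motifs outside the windows were not searched.

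Libraries held 32073865 to 74041441 gene counts. Il6 (ENSMUSG00000025746), the targeted gene, was at 0 to 4 counts in the 12 WT libraries, 1 to 4 in knockout vehicle and 3 to 16 in knockout PRA libraries, so its counts cannot check the genotype labels. Whether each library is a separate animal is not in the labels, so the spread that p-values rest on is that between these samples and may be technical. All levels are CPM, a count as a share of the library total times a fixed constant, with the total scaled by TMM, an edgeR factor that sets the bulk of genes equal between libraries, and fold changes and p-values are from edgeR's quasi-likelihood test over 15570 genes with Benjamini-Hochberg adjustment. A gene passed at an adjusted p at or under 0.05. In bulk liver, fewer cells of a type and less RNA per cell cannot be told apart.

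Of the 89 subunit genes, 79 had enough counts to be tested: 37 of complex I, all 4 of complex II, all 8 of complex III, 13 of complex IV and 17 of complex V. The other 10 were at or near 0 in liver, and most are isoforms or copies known from other tissues. Cox4i2, the hypoxia- and lung-associated isoform of subunit 4, had 0 to 9 counts per library, Cox6a2, the heart and muscle isoform of subunit 6a, 0 to 10, and Cox8b, another muscle isoform, 0 to 2. Cox7b2 and Cox8c had no count in any library, which allows at most 3 counts or 0.0405 to 0.0935 CPM without scaling, for counting error only. Ndufa11b, Ndufb4c, Ndufs6b, Cox6c2 and a second row named Atp5o had 3, 53, 60, 22 and 3 counts in all 19 libraries together. None of the 10 therefore carries a fold change.

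Levels between genes were compared as CPM per kilobase of the principal transcript. In normal liver, the highest were Atp5b, the catalytic beta subunit of ATP synthase (593 ± 17.2, SD, n = 4), Uqcrq, a small subunit of complex III (587 ± 29.4), and Atp5g3, one of 3 genes for the same c-ring subunit. Among those 3, Atp5g3 stood at 507, Atp5g1 at 198 and Atp5g2 at 131 CPM per kilobase. The liver forms prevailed in each isoform set: Cox4i1 stood at 424 against 0.143 for Cox4i2, Cox6a1 at 453 against 0.107 for Cox6a2, Cox6b1 at 301 against 0.508 for Cox6b2, and Cox7a2 at 183 against 3.17 for Cox7a1. Ndufa4 stood at 327 and its paralogue Ndufa4l2 at 2.42. The tested subunits thus spanned 0.508 (Cox6b2) to 593 (Atp5b) CPM per kilobase. Transcript lengths come from an annotation of GRCm38 and are approximate for these counts.

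In WT livers, subunit transcripts stood slightly higher after PRA than after vehicle, across all 5 complexes, when set against the bulk of genes. On the TMM scale 77 of the 79 tested subunits had a positive log2 fold change, with a median of 0.20 (1.15-fold) and a middle range of 0.163 to 0.232, while the median of all genes was -0.03 and 47.0% of genes were positive. Only 4 subunits passed the test, all higher: Ndufb2 and Ndufb6 of complex I and Atp5e and Atp5l of complex V. That is 4 of 79, against 9.74% of all genes tested that were higher. No subunit was lower, against 12.3% of all genes tested. An unadjusted p under 0.05 in edgeR was found for 30 subunits, all positive. The share of all genes at that p was not counted, so this number has no background beside it. DESeq2 passed 11 as higher (against 11.7% of all genes) and limma-voom 8 (against 12.5%), and both passed 0 as lower.

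The direction of this difference depends on what the counts are scaled to. TMM factors were 0.845 to 0.890 in WT PRA and 1.01 to 1.16 in WT vehicle libraries, so a fixed share of the library total counts as more after PRA. With library totals and no such factor, the median subunit fold change was -0.09, while the median of all genes moved to -0.33. Of 79 subunits, 4 were positive (Atp5e, Atp5l, Ndufb2 and Cox6b2). In that fit 0 subunits passed as higher and 1 as lower (Ndufa4l2), against 660 and 6374 of 15570 genes tested. Of all genes that passed, 44.1% were higher with TMM, 34.0% with upper quartile scaling and 9.4% with library totals. The subunit median lay above the all-gene median by 0.23 with TMM, 0.23 with RLE, 0.23 with upper quartile scaling and 0.24 with library totals. With upper quartile scaling, which put the median of all genes at -0.07, 0 subunits passed. Statements that subunits stood higher are relative to the bulk of genes in this sense.

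Summed over each complex on the TMM scale, the level was above the vehicle mean in every WT PRA library. Such sums were not made with library totals, where the median subunit log2 fold change was -0.09. The sum over all 5 complexes was 13451 to 14308 CPM in the 4 WT PRA libraries. In WT vehicle it was 10255, 12377, 13862 and 11517 CPM in replicates 1 to 4, and in normal liver 11794 to 12585. Replicate 3 of WT vehicle thus fell within the WT PRA range, and replicate 1 lay below every other library. Complex I summed to 3348 ± 467 CPM after vehicle and 3796 ± 93.6 after PRA (SD, n = 4 each), complex II to 958 ± 54.6 and 1049 ± 25.7, and complex III to 1416 ± 198 and 1618 ± 49.9. Complex IV summed to 1858 ± 310 and 2206 ± 81.4 CPM, and complex V to 4422 ± 489 and 5162 ± 130. The SD of the vehicle group was larger than that of the PRA group in all 5 complexes. These sums over genes carry no test.

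**Figure D1:**
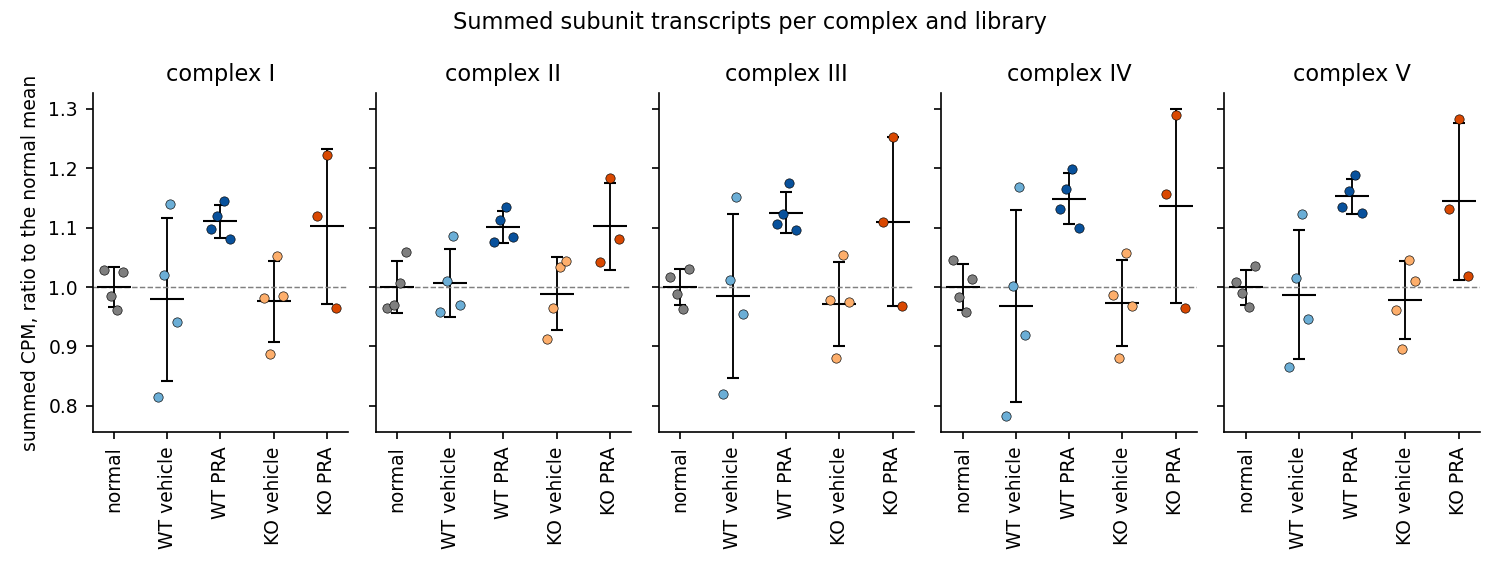
Summed CPM (TMM-scaled) of the subunits of each complex, as a ratio to the mean of the 4 normal libraries, in every library of the 5 groups; points are libraries, horizontal marks are group means and bars are SD (KO, knockout). With TMM the lowest WT PRA value is 1.08, in complex II, while with library totals the median subunit is lower after PRA; 1 WT vehicle library reaches 1.17 in complex IV and 1 knockout PRA library falls to 0.964.

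By complex, the median log2 fold change for WT PRA against vehicle on the TMM scale was 0.19 for complex I, 0.14 for complex II, 0.20 for complex III, 0.24 for complex IV and 0.22 for complex V. All 13 tested subunits of complex IV, all 8 of complex III and all 4 of complex II were positive. In complex I the exception was Ndufa4l2 (-0.36 ± 0.22, SE), and in complex V it was Atp5s (-0.04). The highest value belonged to Cox6b2, a testis-associated isoform of subunit 6b with 2 to 19 counts per library (0.31 ± 0.42), which did not pass.

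Ndufb2 (ENSMUSG00000002416) encodes an accessory subunit of the membrane arm of complex I. Its level was 27.9, 33.0, 36.9 and 32.3 CPM in WT vehicle and 39.8, 40.3, 37.9 and 42.1 CPM in WT PRA libraries. All 4 PRA libraries were above all 4 vehicle libraries, and all 4 normal libraries, at 31.5 to 33.0 CPM, were below every PRA library. The log2 fold change of Ndufb2 was 0.30 ± 0.10 (SE, edgeR adjusted p = 0.0287). Ndufb6 (ENSMUSG00000071014), another accessory subunit of the same arm, was at 43.3, 49.1, 60.0 and 45.5 CPM after vehicle and 56.7, 61.6, 59.1 and 59.7 CPM after PRA. Here the groups overlapped, since WT vehicle replicate 3 was above 3 of the 4 PRA libraries (log2 fold change 0.26 ± 0.09, edgeR adjusted p = 0.0494).

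Atp5e (ENSMUSG00000016252) encodes the epsilon subunit in the central stalk of ATP synthase. It was at 75.9, 90.5, 104 and 86.1 CPM in WT vehicle and at 112, 108, 106 and 112 CPM in WT PRA libraries. The groups did not overlap, although WT vehicle replicate 3 came within 2 CPM of the lowest PRA library (log2 fold change 0.30 ± 0.10, edgeR adjusted p = 0.0330). Atp5l (ENSMUSG00000038717), encoding subunit g of the membrane sector, was at 101, 119, 145 and 120.5 CPM after vehicle and 145, 153, 152 and 148 CPM after PRA. Its groups did not overlap either, and WT vehicle replicate 3, at 144.8 CPM, lay next to WT PRA replicate 1, at 144.9 CPM (log2 fold change 0.30 ± 0.10, edgeR adjusted p = 0.0310).

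**Figure D2:**
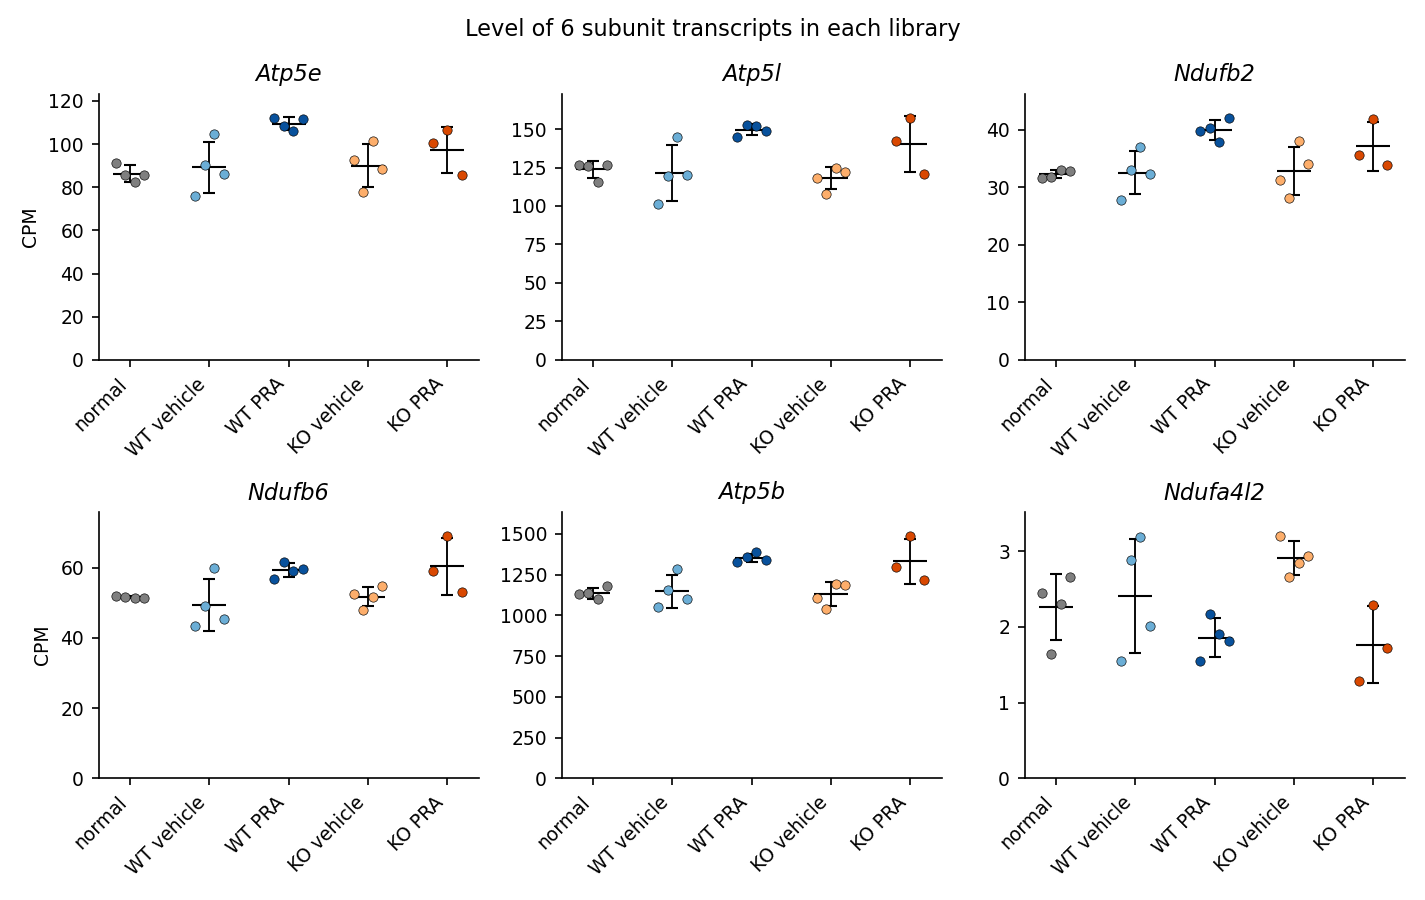
CPM (TMM-scaled) of 6 subunit transcripts in each library of the 5 groups; points are libraries, horizontal marks are group means and bars are SD, and each axis starts at 0. On this scale the WT PRA libraries of Ndufb2 (37.9 to 42.1 CPM) lie above all WT vehicle libraries, and the knockout PRA libraries of Ndufa4l2 (1.28 to 2.29 CPM) lie below all knockout vehicle libraries (2.66 to 3.20 CPM).

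These 4 calls rested on small margins. Without WT vehicle replicate 3, 36 of 79 subunits passed as higher, against 9.62% of all genes in the same fit. Without WT vehicle replicate 1, 2 or 4 or WT PRA replicate 2 or 4, none did. Without WT PRA replicate 1 only Atp5l passed, and without WT PRA replicate 3 only Ndufb2. The median fold change was positive in all of these, between 0.13 (without WT vehicle replicate 1) and 0.28 (without WT vehicle replicate 3).

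In 10 of the 79 tested subunits every WT PRA library was above every WT vehicle library, against 11.1% of all genes tested, and in 0 every one was below, against 12.1%. They included Ndufa3, Ndufa4, Ndufb2 and Ndufs4 of complex I, Cox7a2l of complex IV and Atp5a1, Atp5b, Atp5e and Atp5l of complex V. Their number is close to the background share. Atp5b was at 1050, 1153, 1287 and 1098 CPM after vehicle and 1326, 1360, 1386 and 1336 CPM after PRA (log2 fold change 0.24 ± 0.09, edgeR adjusted p = 0.0542). Atp5a1, its alpha subunit partner in the catalytic head, had a log2 fold change of 0.22 ± 0.08 (edgeR adjusted p = 0.0504), and Ndufa4 one of 0.27 ± 0.10 (edgeR adjusted p = 0.0501). Both just missed the threshold.

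Of the core subunits fixed for description, none passed in WT PRA against vehicle. In complex I, Ndufv1, which binds NADH and flavin, stood at 163 ± 20.1 CPM after vehicle and 188 ± 11.02 CPM after PRA (0.20 on the log2 scale, edgeR adjusted p = 0.123), and Ndufs1, the largest iron-sulfur subunit, at 93.0 ± 4.59 and 96.8 ± 8.09 CPM (0.06, edgeR adjusted p = 0.671). Ndufs3, of the ubiquinone-reducing module, had 0.19. In complex II, the flavoprotein Sdha stood at 443 ± 33.1 CPM after vehicle and 476 ± 13.5 after PRA (0.10), the iron-sulfur subunit Sdhb at 215 ± 40.3 and 241 ± 7.51 CPM (0.16), and the membrane anchors Sdhc and Sdhd had 0.17 and 0.12. In complex III, the core proteins Uqcrc1 and Uqcrc2 had 0.19 and 0.14 and the Rieske iron-sulfur protein Uqcrfs1 0.16. In complex IV, Cox4i1, Cox5a and Cox5b, which surround the mitochondrially encoded core, had 0.27, 0.27 and 0.23, and in complex V the c-ring genes Atp5g1, Atp5g2 and Atp5g3 had 0.21, 0.15 and 0.22. All of these were positive and none passed, with edgeR adjusted p values from 0.0603 (Cox4i1) to 0.671 (Ndufs1).

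Subunits deviated together from library to library within groups. In WT vehicle replicate 1, 75 of 79 subunits were below their group mean (median log2 deviation -0.27), and in WT vehicle replicate 3, 75 of 79 were above it (0.26). In knockout PRA replicate 2 all 79 were above (0.17) and in knockout PRA replicate 3, 75 were below (-0.20). Knockout vehicle replicate 2 had 76 below (-0.15) and replicate 3 had 73 above (0.12). The WT PRA libraries, in contrast, had medians between -0.03 and 0.04. Genes of cytosolic ribosomal proteins, many of which also have short transcripts, deviated alike in these libraries (97 tested, taken by a symbol pattern that also catches some other genes). Their medians were -0.28 and 0.27 in WT vehicle replicates 1 and 3, and 0.20 and -0.22 in knockout PRA replicates 2 and 3. The 18 genes of the tricarboxylic acid cycle stood at -0.02 and 0.01 in WT vehicle replicates 1 and 3 and at 0.00 in knockout PRA replicate 3, but in knockout PRA replicate 2, 17 of the 18 were above their group mean (0.12). The part of RNA quality or library preparation in this was not tested.

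**Figure D3:**
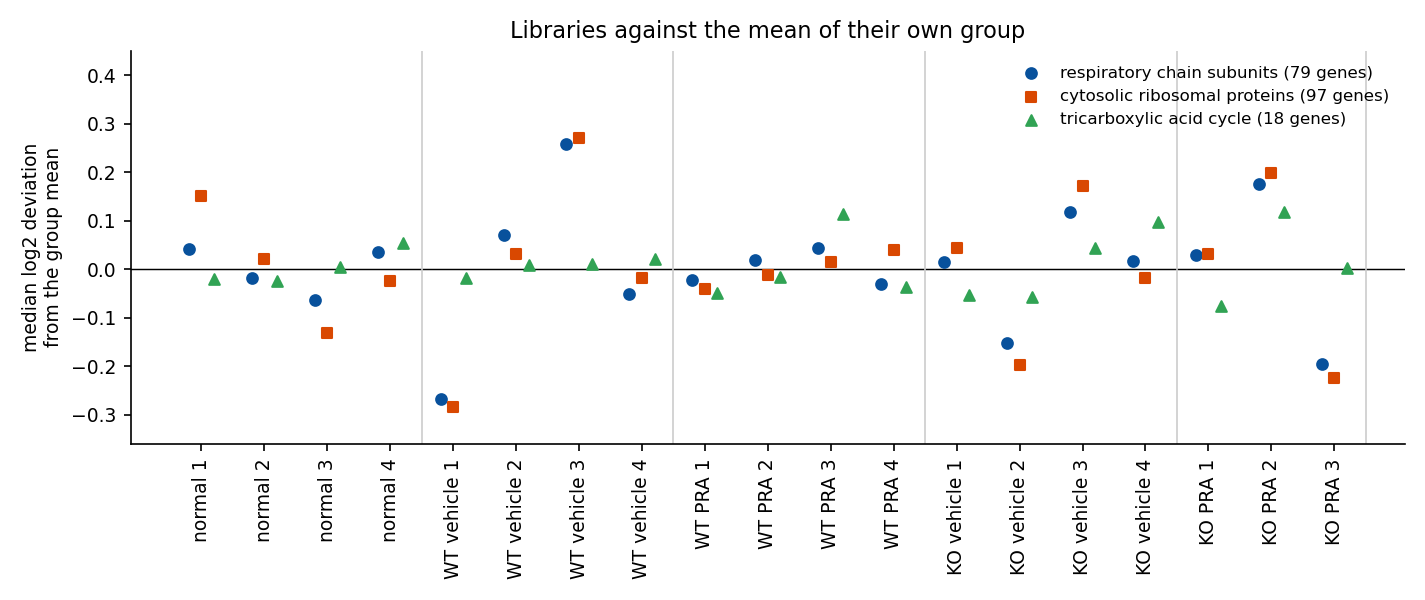
Median log2 deviation of each library from the mean of its own group (vertical axis), for the tested subunits (circles), cytosolic ribosomal protein genes (squares) and tricarboxylic acid cycle genes (triangles), library by library. Subunits and ribosomal protein genes lie together at -0.27 and -0.28 in WT vehicle replicate 1 and at 0.26 and 0.27 in replicate 3, where the cycle genes are at -0.02 and 0.01.

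Most subunit transcripts are short, and short transcripts as a class had higher fold changes than long ones in WT on the TMM scale. Among all genes with a principal transcript under 1000 bases the median log2 fold change for WT PRA against vehicle was 0.12 (936 genes), and among the 52 subunits in that class it was 0.22. In the next class, up to double that length, it was 0.03 over 3203 genes and 0.19 over 22 subunits. In knockout livers the medians were 0.05 for all genes and 0.18 for subunits in the shorter class, and -0.0044 and 0.18 in the longer one. When a trend on transcript length was removed from each library, an alternative added after seeing the data, 26 subunits passed as higher in WT, against 15.7% of all genes in the same fit, and 34 in knockout, against 12.4%, with a WT median of 0.13. Of the 4 that passed with TMM alone in WT, Atp5e and Atp5l were among the 26, and Ndufb2 and Ndufb6 were not. Ratios of summed subunit to summed ribosomal protein CPM were 0.865 to 0.950 in the WT vehicle and 0.851 to 0.922 in the WT PRA libraries, and the ranges of the groups overlapped.

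In knockout livers the pattern across subunits was similar in size, and no subunit rose. On the TMM scale 76 of 79 were positive for knockout PRA against knockout vehicle, with a median of 0.18 against 0.00 for all genes, but with library totals only 29 of 79 were positive, with medians of -0.03 for subunits and -0.21 for all genes. By edgeR 0 of 79 passed as higher, against 7.96% of all genes tested. At an unadjusted p under 0.05 there were 14 positive subunits, and the share of all genes at that p was not counted. DESeq2 passed 2 as higher, Atp5a1 and Atp5b, against 9.29% of all genes. With limma-voom 4 passed as higher, Atp5a1, Atp5l, Ndufa10 and Ndufb11, against 8.93%. The medians by complex were 0.18, 0.16, 0.20, 0.21 and 0.22 for complexes I to V. Leaving out knockout PRA replicate 3 passed 5 subunits as higher, against 5.93% of all genes in the same fit (Atp5l, Cox5b, Cox7b, Ndufa10 and Ndufb11), and every other omission passed 0.

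One subunit fell, against 8.38% of all genes tested: Ndufa4l2 (ENSMUSG00000040280), a paralogue of Ndufa4 known as a target of hypoxia-inducible factors that lowers complex I activity. Knockout vehicle libraries had 3.20, 2.66, 2.85 and 2.94 CPM of it and knockout PRA libraries 1.28, 2.29 and 1.72 CPM, with no overlap. Its log2 fold change was -0.73 ± 0.24 (SE, n = 4 and 3, edgeR adjusted p = 0.0410). In WT it was at 1.54, 2.88, 3.18 and 2.02 CPM after vehicle and 1.55, 2.16, 1.90 and 1.81 CPM after PRA, which overlapped (-0.36 ± 0.22, edgeR adjusted p = 0.260), and the difference between genotypes in this response did not pass (-0.37, edgeR adjusted p = 0.838). Ndufa4l2 had 43 to 185 counts per library. The knockout call was lost without knockout vehicle replicate 1, 3 or 4 or knockout PRA replicate 1 or 3.

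Knockout PRA and knockout vehicle libraries did not overlap in 3 subunits that were higher after PRA (Atp5a1, Atp5b and Ndufa10, against 11.9% of all genes tested) and in Ndufa4l2, which was lower (against 13.2%). Atp5b was at 1109, 1038, 1189 and 1188 CPM after vehicle and 1297, 1485 and 1215 CPM after PRA (log2 fold change 0.24 ± 0.09, edgeR adjusted p = 0.0902). The summed level over all 5 complexes was 10920 to 12810 CPM in knockout vehicle and 13696, 15324 and 12136 CPM in knockout PRA replicates 1 to 3. Replicate 3 of knockout PRA thus lay within the vehicle range.

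**Figure D4:**
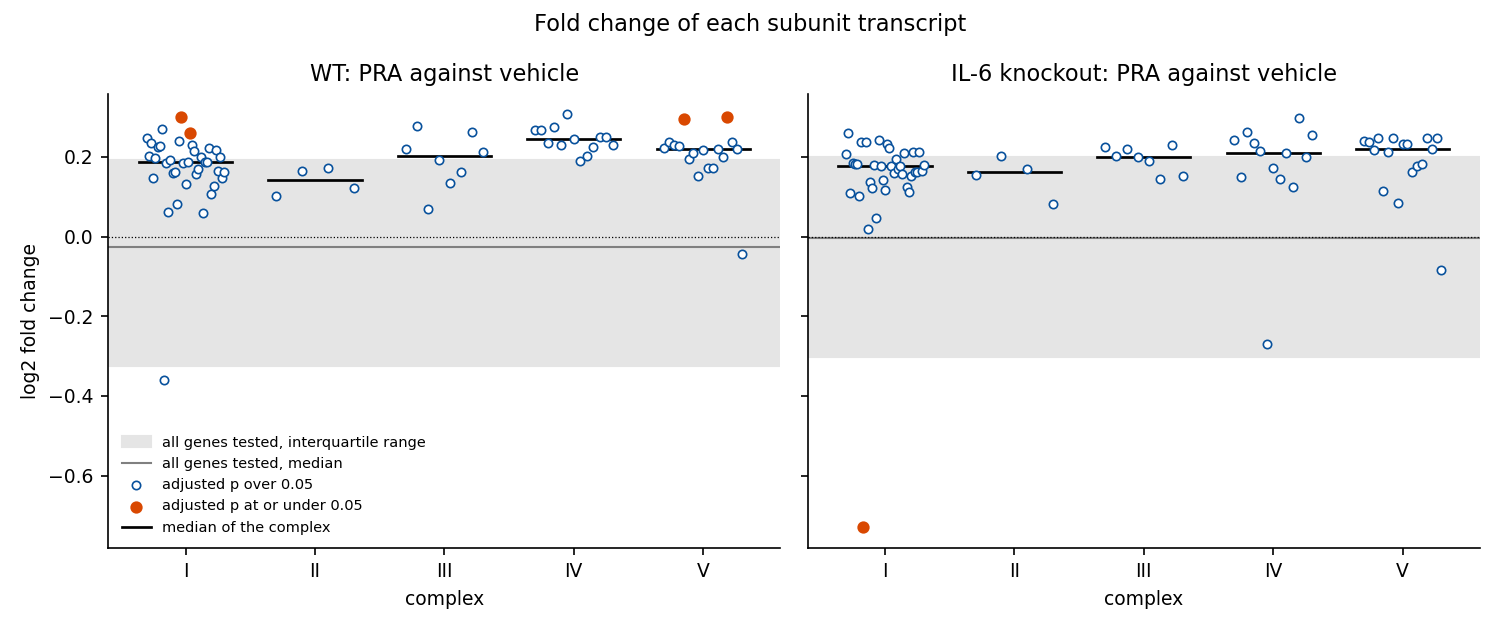
Log2 fold change (TMM scaling) for PRA against vehicle of each of the 79 tested subunits, by complex, in WT (left) and knockout (right); filled points passed at an adjusted p at or under 0.05, black lines are medians of the complex, and the grey line and band are the median and interquartile range of all genes tested. Complex medians lie between 0.14 and 0.24 in WT and between 0.16 and 0.22 in knockout, above the all-gene medians of -0.03 and 0.00, and Ndufa4l2 at -0.73 is the filled point on the right; with library totals in place of TMM both sets of points shift below 0 in their medians.

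The WT and knockout responses share no library. On the TMM scale, 76 subunits were positive in both, Atp5s and Ndufa4l2 were negative in both, and Cox6b2 differed in sign. The estimates were within 0.1 of each other on the log2 scale in 69 of 79 subunits. The same shares over all genes were not counted. Subunits deviated together within libraries, so these counts are not 79 separate repeats.

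The test of the genotype by treatment interaction (knockout response minus WT response) passed 0 subunits, against 0.0385% of all genes higher and 0.437% lower, with 0 at an unadjusted p under 0.05 in edgeR and 0 passed by DESeq2 or limma-voom. The median was -0.02 with TMM and 0.07 with library totals, and single values ran from -0.58 (Cox6b2) to 0.15 (Uqcrb). Atp5e had estimates of 0.30 ± 0.10 in WT and 0.11 ± 0.10 in knockout (SE), and an interaction of -0.18 ± 0.14 (edgeR adjusted p = 0.815). A missed threshold does not show that the responses were equal.

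Knockout and WT livers were also compared within each treatment. Under PRA 0 of 79 subunits passed, against 1.64% of all genes higher and 2.15% lower, and 0 had an unadjusted p under 0.05 in edgeR or in DESeq2 and 1 in limma-voom. The median was -0.03 with TMM and 0.04 with library totals. Ndufs4, an accessory subunit of the peripheral arm of complex I, was at 53.3, 56.2, 52.6 and 52.9 CPM in WT PRA and at 48.3, 51.5 and 41.4 CPM in knockout PRA libraries (-0.19 ± 0.10, edgeR adjusted p = 0.366). Ndufs4 and Ndufa3 were the 2 subunits in which every knockout PRA library was below every WT PRA library, against 7.26% of all genes tested, and in 0 was every one above, against 8.48%. After vehicle 0 of 79 passed, against 0.0514% of all genes higher and 0.0193% lower, with 0 at an unadjusted p under 0.05 in edgeR, DESeq2 and limma-voom, and in 0 subunits were the groups apart (against 1.54% of all genes with knockout above WT and 1.15% below).

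Normal liver gave a second reference for the WT groups. WT vehicle against normal passed 0 subunits, against 1.18% of all genes higher and 0.822% lower, with 0 at an unadjusted p under 0.05 in edgeR, DESeq2 and limma-voom. In 0 subunits were all vehicle libraries above all normal libraries (against 4.74% of all genes tested) and in 0 below (against 3.78%). The median was -0.03 with TMM and -0.12 with library totals. Ndufs7, an iron-sulfur subunit next to the ubiquinone site of complex I, had -0.18 ± 0.09 (edgeR adjusted p = 0.359).

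WT PRA against normal shares its PRA libraries with WT PRA against vehicle, so the 2 comparisons are not independent. In it 7 subunits passed as higher and 0 as lower, against 13.5% of all genes higher and 14.9% lower: Ndufa3, Ndufa4 and Ndufb2 by name of complex I and Atp5a1, Atp5b, Atp5e and Atp5l of complex V. On the TMM scale 72 of 79 were positive with a median of 0.175, beside an all-gene median of -0.02. With library totals 0 were positive, with a median of -0.20 beside -0.40 for all genes. In that fit 34 subunits passed as lower and 0 as higher, against 7993 and 811 of 15570 genes tested. The share lower was thus smaller among subunits than among all genes. Of all genes that passed, 47.5% were higher with TMM, 38.6% with upper quartile scaling and 9.2% with library totals. With upper quartile scaling 1 subunit, Atp5e, passed, and leaving out single libraries gave 2 to 5, with Atp5e among them each time. Without normal replicate 2, 3 or 4, or any 1 of the WT PRA libraries, 2 to 4 subunits passed.

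Atp5e was at 91.4, 85.7, 82.4 and 85.9 CPM in normal liver, below all 4 WT PRA libraries (106 to 112 CPM; log2 fold change 0.34 ± 0.10, SE, edgeR adjusted p = 0.0113). Ndufa3, a small accessory subunit of complex I, was at 56.9, 57.3, 52.1 and 56.7 CPM in normal and 68.2, 69.5, 66.2 and 66.1 CPM in WT PRA liver (0.28, edgeR adjusted p = 0.0186). In both the groups stood apart. On the TMM scale every WT PRA library was above every normal library in 50 of 79 subunits, against 16.7% of all genes tested. In 0 every one was below, against 16.9%. With library totals 0 of 79 subunits had a positive log2 fold change in this comparison. Subunits deviated together within libraries, so these are not 50 separate results.

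Other gene lists are described on the TMM scale, and their values with library totals were not summarised. With library totals the median of all genes lay at -0.33 in WT and -0.21 in knockout. Small rises in these lists, like those of the subunits, are therefore relative to the bulk of genes. Among all genes tested, 9.74% passed as higher and 12.3% as lower in WT, and 7.96% and 8.38% in knockout. The subunits encoded in mitochondrial DNA complete complexes I, III, IV and V. In WT PRA against vehicle 0 of 13 passed, although all 13 were positive on the TMM scale (median 0.17). In knockout PRA against vehicle 2 rose, mt-Nd5 (0.50 ± 0.14, edgeR adjusted p = 0.0170) and mt-Co2 (0.54 ± 0.18, edgeR adjusted p = 0.0467), with all 13 positive and a median of 0.25 (1 passed with upper quartile scaling). Their sum was 56631 to 79734 CPM in WT vehicle, 71116 to 87731 in WT PRA, 67645 to 77465 in knockout vehicle and 79588 to 92740 in knockout PRA libraries. The WT ranges overlapped and the knockout ranges did not. Poly(A) selection bears on how these transcripts are captured, and they are not compared in level with nuclear transcripts.

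Assembly factors, which help to build the complexes but are not part of them, did not share the subunits' one-sided distribution. Of 19 tested factors for complex I, Foxred1 rose in both genotypes (0.37 ± 0.07 in WT, 0.25 ± 0.08 in knockout) and Tmem186 fell in both (-0.36 ± 0.10 and -0.44 ± 0.11), while Tmem126b fell in WT (-0.29 ± 0.09). Of 37 tested factors for complexes II to V, Higd1a, a hypoxia-inducible protein associated with complex IV, rose in both (0.37 and 0.31), and the complex II assembly factor Sdhaf1 (-0.39 and -0.63) and the complex IV factor Coa7 (-0.36 and -0.41) fell in both. The other 16 and 34 factors did not pass in WT, and with upper quartile scaling 0 of either list rose in knockout. The shares of all genes were 9.74% higher and 12.3% lower in WT, and 7.96% and 8.38% in knockout. The list medians were 0.03 and 0.04 in WT and -0.03 and 0.01 in knockout on the TMM scale, against 0.20 and 0.18 for the subunits. Of subunits outside the symbol rule, 2 were listed. They had 0.19 and 0.18 (Cyc1) and 0.16 and 0.14 (Ndufab1) in WT and knockout and did not pass. Ndufb1-ps was in no list.

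Of 26 tested regulators of mitochondrial biogenesis, 4 rose and 4 fell in WT, against 9.74% and 12.3% of all genes tested. Those with the smallest p were Ppargc1b, a coactivator of the estrogen-related receptors and NRF1 (-1.24 ± 0.24, edgeR adjusted p = 0.000866), the fatty acid sensing receptors Ppard (0.56 ± 0.13) and Ppara (-0.67 ± 0.17), and Gabpb1, a subunit of the ETS factor GABP (0.43 ± 0.11). In knockout 6 rose and 1 fell (against 7.96% and 8.38% of all genes tested), or 2 fell with upper quartile scaling. Ppargc1a, the coactivator of oxidative metabolism and gluconeogenesis, rose there (1.18 ± 0.27, edgeR adjusted p = 0.00523) and had 0.49 ± 0.26 in WT (edgeR adjusted p = 0.185), and the difference between genotypes did not pass (0.69, edgeR adjusted p = 0.640). Tfam, which packages and transcribes mitochondrial DNA and was chosen after its values were seen, fell in both genotypes (-0.28 ± 0.08 in WT and -0.26 ± 0.08 in knockout).

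Carriers and cycle enzymes that feed the chain were tested alongside. Over all genes tested, 9.74% were higher and 12.3% lower in WT, and 7.96% and 8.38% in knockout. Of 25 carriers, 4 rose and 0 fell in WT: the uncoupling protein homologue Ucp2 (0.91 ± 0.11), the phosphate carrier Slc25a3 (0.33 ± 0.09), the adenine nucleotide translocator Slc25a5 (0.31 ± 0.10) and the ubiquinone-binding protein Coq10b (0.97 ± 0.30). In knockout 5 rose (1 with upper quartile scaling), among them Ucp2 (0.90 ± 0.11), Slc25a3 (0.30 ± 0.09), cytochrome c (Cycs, 0.32 ± 0.10) and Pdss1 of ubiquinone synthesis (0.67 ± 0.20). Of 18 enzymes of pyruvate oxidation and the tricarboxylic acid cycle, 4 rose and 0 fell in each genotype (2 rose in knockout with upper quartile scaling). Fumarase (Fh1) rose most, by 1.12 ± 0.11 in WT (edgeR adjusted p = 4.44e-07) and 0.64 ± 0.12 in knockout, and it was lower in knockout than in WT under PRA (-0.86 ± 0.12, edgeR adjusted p = 0.000152), although the interaction did not pass (-0.48, edgeR adjusted p = 0.296). Pdhx, a structural subunit of pyruvate dehydrogenase, also rose in both genotypes, by 0.33 in WT and 0.34 in knockout.

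Ribosomal protein genes served as other large sets of coordinated housekeeping transcripts. Of 78 mitochondrial ribosomal protein genes 2 rose and 1 fell in WT (against 9.74% and 12.3% of all genes tested), with a median of 0.04. In knockout 1 rose and 1 fell (against 7.96% and 8.38%), with a median of 0.01. Of 97 cytosolic ones 89 were positive in WT with a median of 0.19, and 91 in knockout with a median of 0.15, on the TMM scale. Rpl24 (0.34 ± 0.11) rose in WT but not with upper quartile scaling. The symbol pattern also catches genes that are not ribosomal proteins, and how many of the 97 are such genes was not counted. An example is the kinase gene Rps6ka1, which fell in both. The cytosolic list thus had medians within 0.04 of those of the respiratory subunits.

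Hypoxia-responsive genes were listed because Ndufa4l2, Cox4i2 and Higd1a are known targets of hypoxia-inducible factors. Shares of all genes tested were 9.74% higher and 12.3% lower in WT, and 7.96% and 8.38% in knockout. Of 19 tested, 8 rose and 0 fell in each genotype (5 rose in knockout with upper quartile scaling), with Pfkfb3, which drives glycolysis, at 2.46 ± 0.34 in WT and 1.99 ± 0.36 in knockout, and aldolase (Aldoa) at 0.58 and 0.59. Lactate dehydrogenase A (Ldha) rose in WT (0.54 ± 0.16), and Kdm3a (0.54 ± 0.13) and Slc2a1 (0.64 ± 0.17) rose in knockout. Ndufa4l2 did not move with them: it fell in knockout and had a negative estimate in WT.

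Some markers of the cell types in liver also differed between the groups. For all genes tested the shares were 9.74% higher and 12.3% lower in WT, and 7.96% and 8.38% in knockout. All 10 hepatocyte markers were positive in both genotypes (medians 0.25 and 0.26), with 2 passing in WT and 1 in knockout, and their sum was 102859 to 130570 CPM in WT vehicle, 143088 to 151043 in WT PRA, 128578 to 139034 in knockout vehicle and 143883 to 192784 in knockout PRA libraries. Of 6 tested neutrophil markers all 6 rose in WT and 2 in knockout. Their sum was 1.49 to 3.21 CPM in WT vehicle, 11.3 to 12.9 in WT PRA, 4.56 to 6.22 in knockout vehicle and 4.18 to 13.8 in knockout PRA libraries, and Ly6g, Elane and Ngp had too few counts to test. Of 5 tested red cell markers 4 rose in WT and 0 in knockout, with sums of 139 to 152 CPM in WT vehicle and 167 to 211 in WT PRA libraries.

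Of 8 endothelial markers 1 rose and 5 fell in WT (against 9.74% and 12.3% of all genes tested). In knockout 1 rose and 3 fell (against 7.96% and 8.38%). The endothelial sums were 241 to 333 CPM in WT vehicle and 212 to 256 in WT PRA libraries. Of 10 vascular and stellate cell markers 3 fell and 0 rose in WT, although 6 were positive and the list median was 0.35. In knockout 2 fell and 0 rose, with 4 positive and a median of -0.11. Their sums were 164 to 224 CPM in WT vehicle and 113 to 342 CPM in WT PRA libraries. Of 8 macrophage markers 0 passed in either genotype (sums of 114 to 247 CPM in WT vehicle and 219 to 320 CPM in WT PRA). Of 3 tested adipocyte markers 1, Fabp4, rose in both genotypes, and the sum of that list was 14.3 to 22.2 CPM in WT vehicle and 21.8 to 39.7 in WT PRA libraries. Skeletal and heart muscle markers, relevant to Cox6a2 and Cox7a1, summed to 0.358 to 7.08 CPM over all libraries, and 1 of 13 could be tested. The highest vascular, adipocyte and muscle sums were all in WT PRA replicate 1. The part of cell composition in the subunit levels was not tested.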

How the data were processed

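Poly(A)-selected RNA of 19 mouse liver libraries in 5 groups, taken from the sample titles, was sequenced as read pairs, per the labels' protocols. The authors deposited raw counts per gene, made, per the submitters' processing notes, with HTSeq 0.11.3, SAMtools 1.13 and HISAT2 2.2.1 on build GRCm39. The sources used here give neither the annotation release nor the strand setting, so reads of overlapping or antisense genes cannot be told apart. Reads not uniquely placed (14.07% to 19.15% of a library) and reads outside genes (6.28% to 7.58%) stayed out of library sizes, and reads shared with processed pseudogenes or near-identical copies are therefore uncertain. Symbols were matched for 52083 of 55416 rows (99.58% of counts), and 8 rows with -ps in their symbols were left out. Of these, Ndufb1-ps held 36308 counts over all libraries, beside 34229 for Ndufb2, and no other held more than 197. Whether Ndufb1-ps encodes a subunit was not examined. No row carried the symbol Atp5if1.

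The tests used edgeR 4.0.16 (R 4.3.3): filterByExpr, TMM scaling, 1 robust quasi-likelihood model over 19 libraries, 7 contrasts, and Benjamini-Hochberg adjustment over 15570 genes at 0.05. The model was also run on simulated counts, for WT PRA against vehicle only. Genes were simulated independently, so that run cannot show how the test behaves for subunits that deviate together within libraries. Alternatives used other scalings, filters, DESeq2 1.42.0, limma 3.58.1 (voom), a 1.5-fold threshold, the replicate number as a block, only the groups compared, and each library left out. The transcript length offset and the library totals were added after seeing the data. Counts of any 2 replicates of a group differed beyond sampling noise (chi-square over its degrees of freedom at least 20.9). They were therefore not 1 library sequenced again. This cannot tell separate animals from separate preparations of 1 liver. Named subunits were those that passed with at least 2 CPM, up to 10 a direction, and a fixed set of core subunits and isoforms. Some others were named after their values were seen. Among these, Ndufs7, Ndufs4 and the interaction of Atp5e had the lowest adjusted p in contrasts where no subunit passed. Of other lists up to 4 by smallest p were named. Members and lists were chosen with earlier results of these data known.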

Additional observations from a re-analysis of the deposited data

Results flagged for a closer look

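In normal liver, replicate 3 stood apart for 2 named subunits by Dixon's test, which compares the gap to the nearest library with the range of the group. Atp5l was at 115.8 CPM there and at 125.8 to 126.8 CPM in the other 3 normal libraries, and Ndufa3 was at 52.13 CPM and at 56.73 to 57.26 CPM in the others. There were 60 groups of 4 libraries tested, and chance alone marks about 1 in 20.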

How the results depend on the processing

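For WT PRA against vehicle, 4 subunits were higher, and the number was 8 with RLE scaling, 0 with upper quartile scaling, 11 with DESeq2, 8 with limma-voom, 0 against a 1.5-fold threshold, 1 with only the groups compared, 26 with the transcript length offset (against 15.7% of all genes) and 0 to 36 without single libraries (36 without WT vehicle replicate 3, against 9.62% of all genes), the medians then being 0.13 to 0.28. With library totals 0 were higher and 1 lower (against 660 and 6374 of 15570 genes), and the median was -0.0897. For knockout PRA against vehicle, 0 higher became 2 with DESeq2 (against 9.29%), 4 with limma-voom (against 8.93%), 34 with the length offset (against 12.4%) and 0 to 5 without single libraries. The 1 lower became 0 against a 1.5-fold threshold and 0 to 1 without single libraries, and the median was -0.0286 with library totals and 0.09 to 0.28 without single libraries. For WT PRA against normal, 7 higher became 1 with upper quartile scaling, 4 with no low-count filter, 28 with limma-voom (against 17.6%), 0 against a 1.5-fold threshold, 44 with only the groups compared (against 17.8%), 39 with the length offset (against 19.7%) and 2 to 5 without single libraries. With library totals 0 were higher and 34 lower in that comparison (against 811 and 7993 of 15570 genes), and the median was -0.20. The other 4 contrasts passed 0 subunits in every alternative run. With library totals, positive signs went from 77 to 4 of 79 in WT PRA against vehicle (Ndufb6, which passed with TMM, was among those that turned), from 76 to 29 in knockout PRA against vehicle, and from 72 to 0 in WT PRA against normal, including all 7 that passed with TMM. Apart from library totals, signs of named subunits reversed for Cox6b2, Cox7a1 and Atp5g2, none of which passed. Cox6b2 ranged from -0.0193 to 0.536 in WT and from -0.667 to 0.1003 in knockout without single libraries, and Atp5g2 from -0.0244 to 0.181 in knockout. Cox7a1 ranged from -0.0470 to 0.544 in WT and from -0.221 to 0.412 in knockout without single libraries, and was -0.0290 in WT and -0.0544 in knockout with limma-voom and -0.0094 in WT with the length offset. The cause was not tested.

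Same-numbered libraries did not deviate together (correlations of -0.25 to 0.19), so the numbers were not taken as pairs. With the replicate number as a block, 2 subunits (Atp5l and Ndufb2) were higher in WT PRA against vehicle and 4 in WT PRA against normal, and 0 were lower in knockout PRA against vehicle. Ndufa4l2 had knockout estimates of -0.96 to -0.52 over the alternatives, with adjusted p from 0.0179 to 0.206. Isoforms at 2 to 19 counts per library, such as Cox6b2, are limited by depth.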
